A study of Saccharomyces cerevisiae with 3 samples.

Results

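Ergosterol is the main sterol of yeast membranes and takes the place that cholesterol has in animal cells. The late part of its synthesis reshapes the ring system and the side chain of sterol intermediates, and cells that lack one of these late enzymes can live with altered sterols in their membranes. ERG24, ERG6, ERG2, ERG3, ERG5 and ERG4 encode the late enzymes, ERG28 encodes a scaffold that holds sterol enzymes together in the endoplasmic reticulum, and UPC2 and ECM22 encode a pair of related transcription factors that switch on sterol genes when sterols run low.

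The deletion strains of these 9 genes, nonessential genes of late sterol synthesis and its regulation, were taken from a tag array study with 5325 named genes by matching the annotated gene symbol of each probe. All 9 were found, with 28 probes. A budding yeast pool of 5896 heterozygous diploid knockout strains (YKO), described as haploid-convertible, had received a cin8D::URA3 cassette, which removes the mitotic kinesin gene CIN8, and was then sporulated. Haploids from minimal plates (MM) with 5-fluoroorotic acid (5-FOA), which kills cells expressing URA3, formed the single-mutant pool, and haploids from plates lacking uracil (MM-Ura) formed the double-mutant pool, in which each knockout is combined with the loss of CIN8. Experiments 1, 2 and 3 used 0.1, 0.15 and 0.2% 5-FOA, and every plate was kept for 2 days at 30 degrees. Each experiment is 1 array that carries both pools, with the single-mutant tags in Cy5 and the double-mutant tags in Cy3. The dyes were not swapped on any array, so that a dye effect on a tag cannot be told apart from a pool difference. Separate transformations or sporulations are not stated for the experiments, and p-values therefore rest on the spread among 3 arrays, which may be technical. The tags came from genomic DNA per the protocol, while the molecule is labelled total RNA. The tag sequences were not used here.

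Values are deposited log2 ratios of the pools, from which the median of the tag set on that array was subtracted. Each strain has 2 tags, here tag set A and tag set B. Among the 9 members each tag has 1 spot, except ERG2 with 6 spots per tag. The formula of the ratio is not given in the sources used here. A positive ratio likely means a lower share in the double-mutant pool. The basis is that URA1, URA2, URA4 and URA5, whose deletions impair growth without uracil, had positive ratios. They stood at 4.87 ± 0.50, 2.70 ± 0.35, 5.54 ± 1.83 and 5.14 ± 0.37 (mean ± SD, n = 3). Likewise KIP1, the related kinesin, stood at 4.99 ± 0.50. The tags of URA4 stood at 6.73 and 0.11, the latter a single value, and those of URA2 at 1.65 and 3.745. The CIN8 strain itself lay on the other side, at -2.23 ± 0.26, so that the direction is not settled. The deposited medians of the arrays lay between -0.17 and -0.15. The files give no intensities, so that nothing is known here of the signal behind a ratio, and precision is limited by the use of 3 arrays.

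The strains of the last pair of enzymes, ERG5 and ERG4, had negative ratios, and the strain of the activator UPC2 had a positive ratio. ERG4 stood at -1.42 ± 0.61 (SD, n = 3), or 2.68-fold, ERG5 at -0.58 ± 0.063, or 1.49-fold, and UPC2 at 0.66 ± 0.16, or 1.58-fold. ERG24 had the lowest mean of the tested members, -2.41 ± 1.64, but did not pass the test. ERG28, ERG6, ERG3 and ERG2 did not pass it either, and ECM22 could not be tested because experiment 2 held no value for it. The test was limma against 0 with Benjamini-Hochberg adjustment over 5204 strains, and strains with an adjusted p under 0.05 were called.

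Of the 8 tested members, 3 were called (37.5%), against 33.6% of all tested strains, a share near that background. A total of 2 were called negative, where 17.4% of all strains were, and 1 positive, where 16.2% were. The mean was below 0 in 7 of the 8 tested members (87.5%) and in 55.4% of all tested strains. The median of the 8 means was -0.51, and that of all tested strains -0.097. No called member was called once any 1 of experiments 1, 2 or 3 was left out, and the same held for all strains (0 called by limma of 5231, 5254 and 5234, with 1876, 1993 and 1874 at an unadjusted p under 0.05). Likewise 0 members were called with the 5-FOA percentage as a covariate (4 had an unadjusted p under 0.05) or with the ordinary t statistic of the same fit (2 had).

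**Figure D1:**
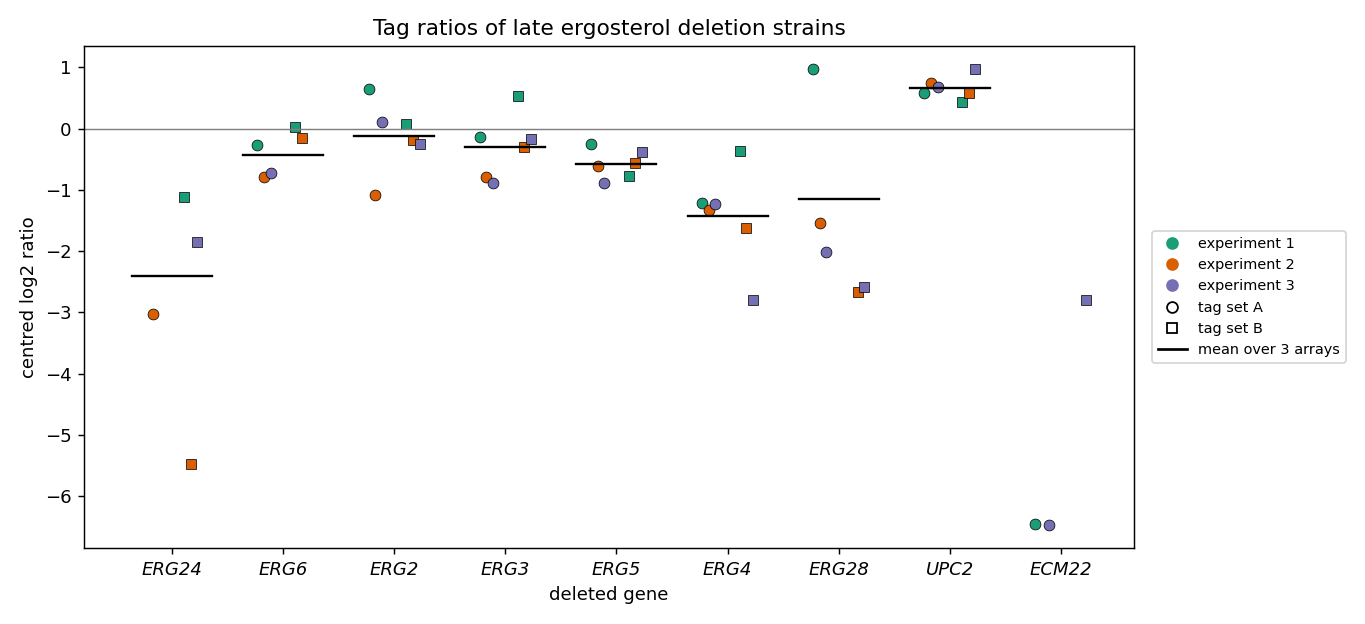
Centred log2 ratio (vertical axis) of each tag on each array for the 9 deletion strains (horizontal axis, enzymes in the order of the pathway, then scaffold and regulators). Circles are tag set A, squares tag set B, colours the 3 experiments, and bars the mean over the arrays. UPC2 has all 6 values above 0, and ERG4 and ERG5 have all 6 below 0. The values of ECM22 at -6.46 and -6.48 come from the lowest deposited ratio.

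Among the enzymes, ERG24 encodes the reductase that follows the demethylation by ERG11. Tag set B of the ERG24 strain stood at -1.12, -5.48 and -1.85 in experiments 1, 2 and 3, and tag set A had a single value, -3.03 in experiment 2. All 4 values were below 0, and experiment 2 stood far below the others. Its deposited ratio there was 0.02 in tag set B, next to the lowest deposited ratio of 0.01, where 1 step of 0.01 is a large step on the log2 scale. The strain mean had an adjusted p of 0.0821 (limma, n = 3), with a 95% interval from -4.55 to -0.26. Without experiment 2 the mean was -1.48 (adjusted p = 0.0833).

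ERG6 encodes the methyltransferase that adds a carbon to the side chain, a step that animals lack. The ERG6 strain stood at -0.27, -0.79 and -0.72 in tag set A, and at 0.032 and -0.15 in tag set B, which was empty in experiment 3. Tag set A was below 0 on all arrays, while tag set B lay near 0. The mean of -0.44 ± 0.30 had an adjusted p of 0.112 (limma, n = 3), with an interval from -0.90 to 0.027.

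ERG2 encodes the isomerase that moves a double bond within the ring system. Each of its tags was printed in 6 spots, which makes it the best measured member within an array. Tag set A stood at 0.65, -1.08 and 0.11 in experiments 1, 2 and 3, and tag set B at 0.073, -0.18 and -0.25. The SD among the 6 spots ran from 0.058 to 0.20, and its median over all 4132 sets of 6 spots was 0.11. In tag set A the 6 spots lay between 0.54 and 0.72 in experiment 1 and between -1.36 and -0.85 in experiment 2, so that the arrays did not overlap. The spread of this tag between arrays, an SD of 0.89, was thus larger than that among its spots. The strain mean was -0.11 ± 0.50 (limma, adjusted p = 0.717, n = 3), with an interval from -0.81 to 0.58.

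**Figure D2:**
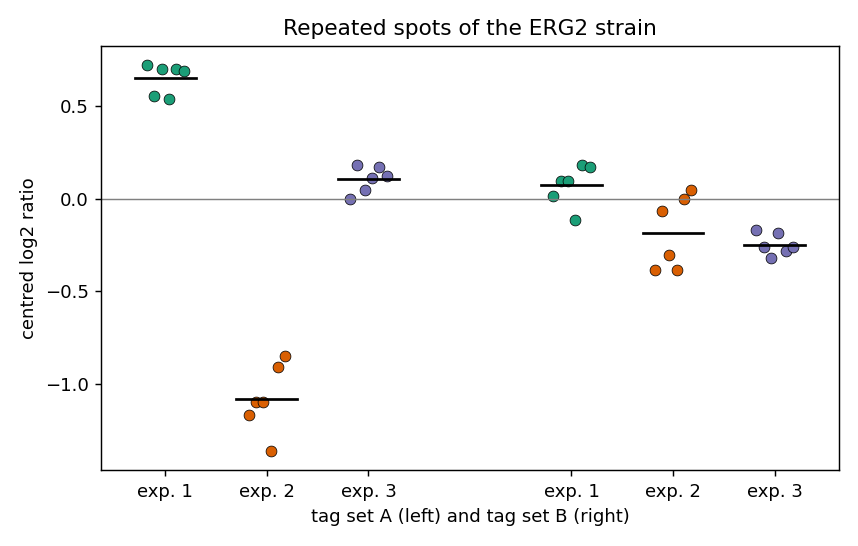
Centred log2 ratio (vertical axis) of the 6 spots of each ERG2 tag in each experiment. Points are spots and bars their means. In tag set A the spots of experiment 2 lie between -1.36 and -0.85, below all spots of experiments 1 and 3.

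ERG3 encodes the desaturase that acts on the ring after ERG2. The ERG3 strain stood at -0.14, -0.79 and -0.89 in tag set A and at 0.52, -0.31 and -0.17 in tag set B. Tag set A was the lower tag on every array. The difference between the tags was -0.62 ± 0.12 (SD, n = 3), with an unadjusted p of 0.0113 and an adjusted p of 0.0851 in limma's test of tag set A minus tag set B. The strain mean, -0.30 ± 0.42, was not called (adjusted p = 0.314, limma), and tag set B alone gave 0.016.

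ERG5 encodes the cytochrome P450 that desaturates the side chain. The ERG5 strain stood at -0.25, -0.61 and -0.89 in tag set A and at -0.78, -0.57 and -0.38 in tag set B in experiments 1, 2 and 3. All 6 values were below 0, but the tags ran in opposite order over the experiments. The tags' own SDs were 0.32 and 0.20, while the SD of the strain mean was 0.063, lower than that of all but 7.40% of the tested strains. The mean of -0.58, with an interval from -0.84 to -0.32, had an adjusted p of 0.0251 (limma, n = 3). Tag set B alone was called (adjusted p = 0.0444, limma) and tag set A alone was not (adjusted p = 0.0689). Over all strains, tag set A alone called 15.6% of 4722 negative and 18.9% positive, and tag set B alone called 14.9% of 4696 negative and 18.2% positive.

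ERG4 encodes the reductase of the final step, which yields ergosterol. The ERG4 strain stood at -1.21, -1.32 and -1.23 in tag set A and at -0.37, -1.62 and -2.79 in tag set B. Tag set A was nearly level over the experiments, while tag set B covered a wide range, so that the strain values were -0.79, -1.47 and -2.01. The mean of -1.42, with an interval from -2.25 to -0.59, had an adjusted p of 0.0381 (limma, n = 3). Here tag set A alone was called (adjusted p = 0.0089, limma) and tag set B alone was not (adjusted p = 0.0957). ERG4 ranked 492nd from the lowest of the 5204 means, and ERG5 ranked 1454th.

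The scaffold strain, ERG28, changed sides between experiments. Its tag set A stood at 0.98, -1.54 and -2.02, and tag set B at -2.67 and -2.59 in experiments 2 and 3, with no value in experiment 1. The 4 values of experiments 2 and 3 were all below -1, and the single value of experiment 1 was above 0. The mean was -1.14 ± 1.84, with an interval from -3.54 to 1.25 (limma, adjusted p = 0.325, n = 3). Without experiments 1, 2 and 3 in turn it was -2.20, -0.66 and -0.56, with adjusted p-values of 0.0787, 0.654 and 0.70 (limma). Without experiment 1, 0.0787 was also the smallest adjusted p of all strains (limma), and 0 of 5231 were called. Of all tested strains, 97.5% had a lower SD over the arrays. ERG28 (YER044C) lies on chromosome V, as does CIN8 (YEL061C), on the other arm by their systematic names, and the part of linkage in its values was not tested.

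The regulators UPC2 and ECM22 are zinc cluster proteins that bind sterol response elements in the promoters of sterol genes. The UPC2 strain stood at 0.57, 0.74 and 0.67 in tag set A and at 0.43, 0.58 and 0.97 in tag set B. All 6 values were positive and the tag means, 0.66 and 0.66, were alike. The interval of the mean ran from 0.34 to 0.98, with an adjusted p of 0.0282 (limma, n = 3). UPC2 was the only member called by both tags, in tag set A with an adjusted p of 0.022 and in tag set B with 0.0482 (limma). A total of 5 members could be tested in both tags, and 11.2% of the 4293 such strains were called positive by both and 5.71% negative by both.

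The ECM22 strain had 3 values of 6. Tag set A stood at the lowest deposited ratio in experiments 1 and 3, which gives -6.46 and -6.48 after centring, and tag set B stood at -2.79 in experiment 3. All 3 values were below 0. Whether the lowest ratio, 0.01, is a rounded value or a set limit is not given, so that the size of the tag set A values is uncertain. Among the 4439 strains with 2 probes, 3.94% had at least 3 empty values. With strains measured on at least 2 arrays admitted, the mean was -5.55, with an adjusted p of 0.0304 (limma). This call rests on 2 arrays, on the lowest ratio and on tags that differed between these arrays. The regulators thus lay on opposite sides of 0, and the difference between them was not tested.

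Set in order of their means, the tested strains ran from ERG24 through ERG4, ERG28, ERG5, ERG6, ERG3 and ERG2 to UPC2. Each strain overlapped the next in its values over the arrays, except that the highest value of ERG2, 0.36, lay below the lowest of UPC2, 0.50. ERG24 and ERG4 did not overlap with ERG5, ERG6, ERG3, ERG2 or UPC2. UPC2 overlapped with ERG28 alone, whose values ran from -2.30 to 0.98. A total of 4 members (50%) were below 0 on all 3 arrays, namely ERG24, ERG4, ERG5 and ERG6, where 37.9% of all strains were. UPC2 was above 0 on all arrays, as were 32.6% of all strains.

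**Figure D3:**
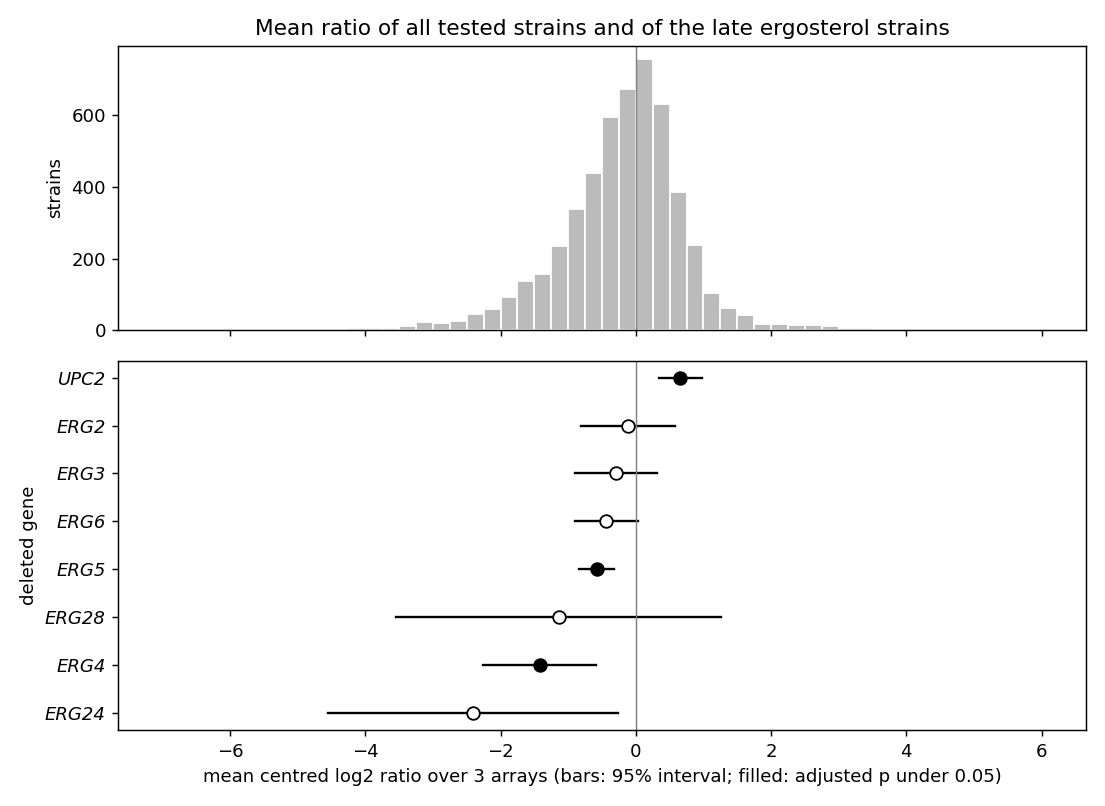
The upper panel counts all 5204 tested strains by mean centred log2 ratio. The lower panel gives the mean of each of the 8 tested late ergosterol strains with its 95% interval from limma, filled where the adjusted p was under 0.05. The intervals of ERG24, ERG4 and ERG5 lie below 0 and that of UPC2 above 0, although ERG24 was not called. Those of ERG24 and ERG28 are the widest of the 8.

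The 2 tags of a strain were compared next. In the 5 members with both tags on all arrays, 0 differed between tags at an adjusted p under 0.05 (limma; 1 had an unadjusted p under 0.05, ERG3), where 7.22% of 4293 strains did. The tag differences were 0.34 ± 1.205 for ERG4, -0.0075 ± 0.52 for ERG5, 0.0022 ± 0.26 for UPC2 and 0.011 ± 0.80 for ERG2. The median absolute difference between tags over all such strains was 0.33. The SD of the tag difference was above that of ERG3, 0.12, in all 4 of these strains.

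Experiment 1 gave the highest value in 7 of the 8 tested members (87.5%), against 33.8% of all strains. UPC2, the exception, was lowest in experiment 1 and highest in experiment 3. Over the 5 members with both tags on all arrays, the count was 4. The median of the 8 members was 0.037 in experiment 1, -0.61 in experiment 2 and -0.68 in experiment 3, while all strains had medians of -0.063, -0.053 and -0.073. In a limma fit of a slope over the 5-FOA percentage, 0 members and 0 of 5204 strains were called (0% called; 263 strains had an unadjusted p under 0.05). ERG4 had the slope with the smallest p among the members, -1.22 per 0.1%, with an unadjusted p of 0.0262 and an adjusted p of 0.974. Each percentage was used once, so that 5-FOA and experiment cannot be told apart.

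The 3 strains nearest to ERG4 over its 6 values were DOP1, URE2 and VPS24, by Euclidean distance among 4292 other strains with all 6 values. DOP1, of Golgi and endosome organisation, lay at a distance of 1.09, URE2, a regulator of nitrogen use, at 1.10, and VPS24, of the endosomal sorting machinery, at 1.18. Their means were -1.30 ± 0.61, -1.57 ± 0.39 and -1.26 ± 0.69, and their likeness to ERG4 follows from the choice by distance. DOP1 and URE2 were called (adjusted p = 0.0449 and 0.0183, limma) and VPS24 was not (adjusted p = 0.0569, limma).

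The other enzymes of the pathway are mostly essential, and haploids without an essential gene do not grow. Of the 13 tested strains of early or essential enzymes, 6 were called negative and 0 positive by limma (10 had an unadjusted p under 0.05), with a median of -1.13 and 12 means below 0. The called share was 46.2%, against 33.6% of all strains, of which 17.4% were negative and 16.2% positive. Strains of other essential genes were not taken as a background. A trait of essential genes can thus not be told apart here from one of the pathway. The called strains were ERG25 (-3.21 ± 1.24), of the demethylation at the ring, and IDI1 (-3.10 ± 0.61), the isomerase of the isoprenoid unit. ERG1 (-2.65 ± 1.06), the squalene epoxidase, had tags at -4.51 and -0.80 and 1 value at the lowest ratio, so that the size of its mean is uncertain. With values at the lowest ratio left out its mean was -1.76 (adjusted p = 0.035, limma), and tag set B alone was not called (adjusted p = 0.0872). ERG10 (-1.13 ± 0.27) and ERG8 (-0.96 ± 0.44), of the mevalonate pathway, were called, as was ERG11 (-1.03 ± 0.40), the demethylase that azole drugs inhibit, with tags at -0.074 and -2.29. In the ERG8 strain tag set B stood at 0.47 and -2.48 in experiments 1 and 2 and was empty in experiment 3. ERG8 was not called in tag set A alone (adjusted p = 0.109, limma) or with the tag value nearer to 0 (adjusted p = 0.477, limma). Of the 13, 6 could be tested in both tags, and of these IDI1 was called by both, while ERG10, ERG8, ERG11 and ERG25 could not be tested in both. ERG12, ERG13 and ERG20 were not called, at -1.91 ± 2.60, -1.13 ± 0.61 and -0.81 ± 1.45. Without experiment 3 ERG12 stood at -0.42 and ERG20 at -0.0060. ERG13 was called without centring (adjusted p = 0.0431, limma) and in tag set B alone (adjusted p = 0.0482, limma). ERG26 could not be tested, with 4 of 6 values empty. Empty values made up 16.7% in these strains, 8.33% in the late ergosterol strains and 5.50% over all named probes, and their part in the ratios was not tested.

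Among 5 nonessential partners and early enzymes, 2 strains were called positive and 1 negative, with a median of 0.44. Over all strains 16.2% were positive and 17.4% negative. NCP1, the reductase that feeds electrons to the cytochromes P450 of the pathway, stood at -2.23 ± 1.10. DAP1, which binds and supports ERG11, stood at 0.71 ± 0.12, and HMG2, a form of HMG-CoA reductase, at 0.57 ± 0.077. HMG1, the other form, and CYB5, cytochrome b5, were not called, at 0.44 ± 0.16 and 0.35 ± 0.058. The tags of DAP1 stood at 1.02 and 0.40, and those of HMG2 at 0.31 and 0.83. All 5 strains could be tested in both tags, and 0 were called by both on either side.

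Of 22 tested strains of sterol uptake, esterification and transport, 4 were called positive and 2 negative, with a median of 0.13, a called share of 27.3% against 33.6% of all strains. ARV1, of sterol distribution between membranes, stood at -4.13 ± 0.27, with tags at -4.71 and -3.55, both called. OSH2, an oxysterol-binding protein homologue, stood at -0.93 ± 0.11, with tags at -1.55 and -0.30. ARE1 (0.48 ± 0.14) and ARE2 (0.86 ± 0.055), the acyltransferases that store sterols as esters, were both positive, ARE2 by both tags. SUT2 (0.88 ± 0.16), a regulator related to SUT1 of sterol uptake, was positive, and so was PDR11 (0.48 ± 0.15), a sterol importer, whose tags stood at -0.41 and 1.37. AUS1, the other importer, was not called at -0.43 ± 0.27, nor were SWH1 at -0.34 ± 0.68 and ATF2 at 0.14 ± 0.13.

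Of 4 further regulators tested, NSG1, which stabilises HMG-CoA reductase, was called positive by both tags, at 0.54 ± 0.042. ROX1 (-0.40 ± 0.24), MOT3 (-0.15 ± 0.16) and NSG2 (0.12 ± 0.15) were not called. The median of the 4 was -0.013. These lists hold 44 tested strains, of which 16 were called (36.4%, against 33.6% of all strains), 7 positive and 9 negative. Without centring 5 were positive and 14 negative (11.4 and 31.8%), against 11.6 and 24.2% of all strains. HAP1 and OSH7 had no probe by name and were not analysed here.

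**Figure D4:**
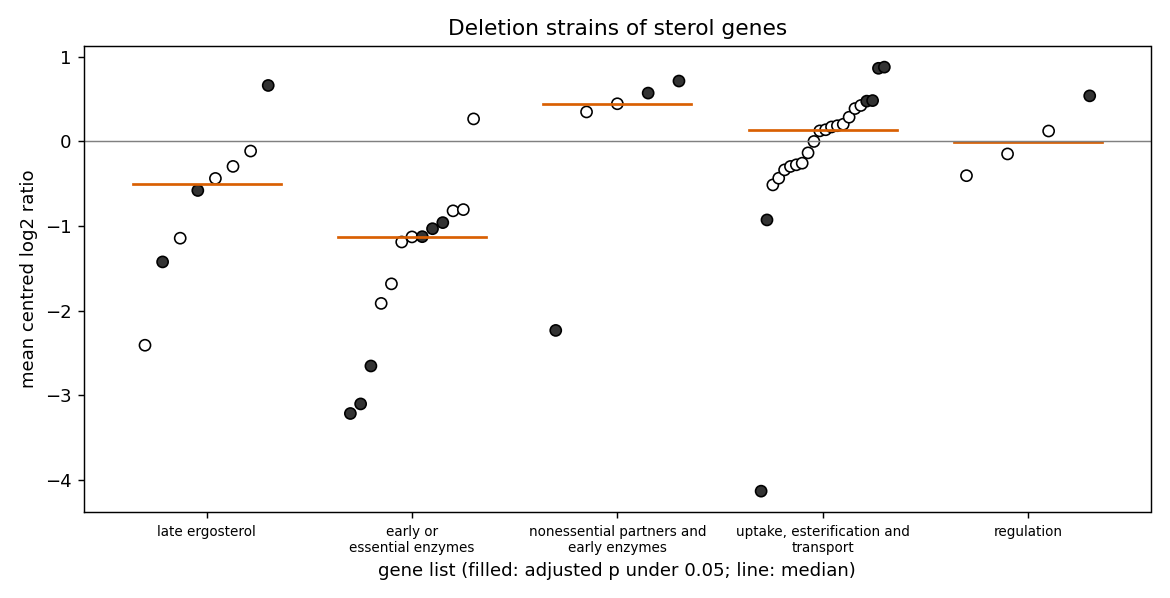
Mean centred log2 ratio (vertical axis) of each tested strain by gene list, filled where limma's adjusted p was under 0.05, with the list's median as a line. The late ergosterol strains have a median of -0.51, the early or essential enzymes one of -1.13, and the other 3 lists medians between -0.013 and 0.44.

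Strains of the genes on either side of each member were set beside it, by gene order in RefSeq's assembly R64. Of 18 neighbouring strains, 2 were called positive and 2 negative, with a median of -0.29, a called share of 22.2% against 33.6% of all strains. Without centring 1 was positive and 5 were negative (5.56 and 27.8%), against 11.6 and 24.2% of all strains. ERG4 lay next to MPO1, a dioxygenase of fatty acid breakdown, which was also negative, at -0.78 ± 0.22, with 1 untested gene between them. PDR1, on its other side, stood at -0.38 ± 0.12 and was not called. The tags of MPO1 stood at -0.60 and -1.585, the latter a single value from experiment 3. ERG2 lay between RAD14 (0.41 ± 0.056), of DNA repair, which was positive, and TOM40 (-1.004 ± 0.14), the essential pore of protein import into mitochondria, which was negative. The tags of TOM40 stood at -1.60 and -0.031, with tag set B empty in experiment 3. SPT8 (0.99 ± 0.15), of the SAGA coactivator, was positive next to ERG3. The SPT8 tags stood at 1.44 and 0.55 and differed from each other (adjusted p = 0.0461, limma). The neighbours of ERG5, CLU1 and SOK2, and those of UPC2, TCP1 and AHA1, were not called, at 0.30 ± 0.12, -0.24 ± 0.51, -0.49 ± 0.58 and 0.033 ± 0.33.

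**Figure D5:**
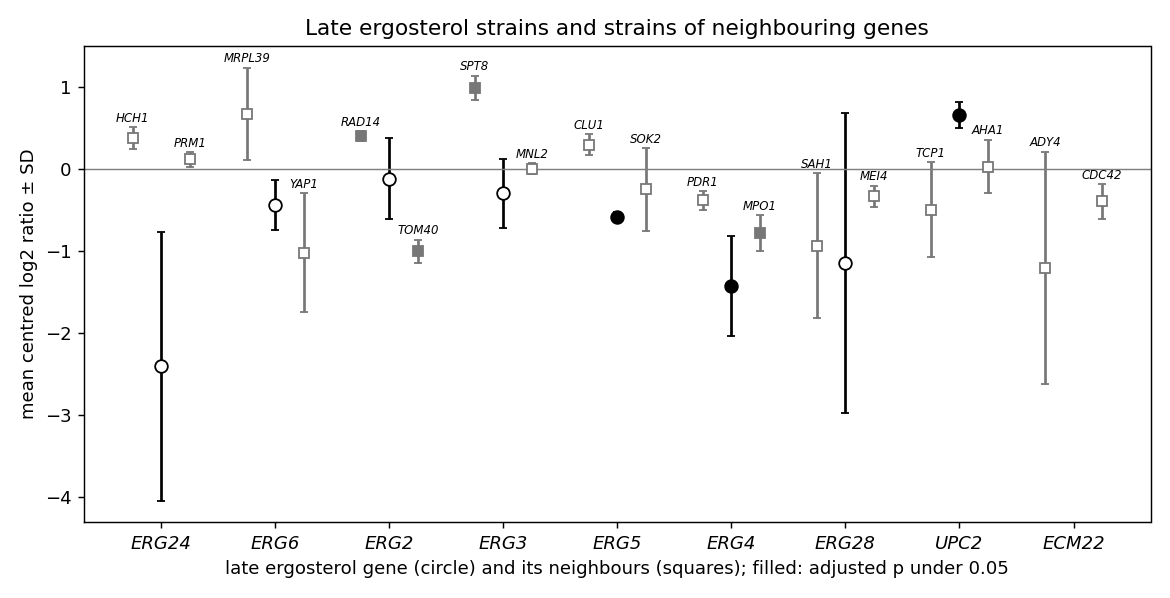
Mean centred log2 ratio ± SD over 3 arrays (vertical axis) of the late ergosterol strains (circles) and of the nearest tested strains on either side (squares, named), filled where limma's adjusted p was under 0.05. ECM22 has no circle because it was not tested. MPO1, at -0.78, is the only called neighbour of a called member.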

How the data were processed

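The arrays measured tag ratios of a single-mutant and a double-mutant pool in 3 experiments. GenePix 5.1 served for image analysis, per the labels' protocols. The authors deposited log2 ratios, whose normalization and filters are not given in the sources used here. Probes were named through the platform annotation, and 5321 of 5325 genes matched RefSeq's assembly R64. Probes 10971 identifiers apart named the same gene in all 9397 pairs and were taken as tag sets A and B. A set of 36 values at a ratio of 999999 was left out as placeholders, which was decided once the values had been seen. Medians of each array and tag set (-0.18 to -0.15) were subtracted, then spots were averaged within a tag and the tags within a strain. Strains measured in every experiment were fitted with limma 3.58.1 (R 4.3.3; lmFit on an intercept, eBayes, two-sided, Benjamini-Hochberg), and the same fit served for single tags, tag differences and the slope over 5-FOA. The fit was tested on simulated data. Intervals are 95% from limma's moderated spread. Tables and plots used pandas 2.3.3, numpy 2.4.6, scipy 1.17.1 and matplotlib 3.10.9 in Python 3.11.15.

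The members and lists were chosen with earlier results of these data known. All members are named, then called strains of the other lists and up to 3 others per list (most spots, then alphabet), called neighbours, and the 3 strains nearest to the fully measured member with the largest absolute mean. Uncalled neighbours of ERG4, ERG5 and UPC2 were added after their values were seen.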

Additional observations from a re-analysis of the deposited data

How the results depend on the processing

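Leaving out experiments 1, 2 or 3 in turn gave 0 to 0 calls among the late ergosterol strains, in total and on either side, among all strains, the other sterol genes and the neighbours. An unadjusted p was then under 0.05 in 7, 5 and 3 late ergosterol strains. ERG4 ranged from -1.74 to -1.13, ERG5 from -0.61 to -0.55 and UPC2 from 0.58 to 0.74 in these fits. With the 5-FOA percentage as a covariate, which takes 1 residual degree of freedom, 0 late ergosterol strains were called on either side (4 had an unadjusted p under 0.05), and the smallest adjusted p was 0.0502, for ERG4. There were then 228 calls over all strains, 3 among the other sterol genes and 0 among the neighbours. The ordinary t statistic gave 0 late ergosterol calls on either side (2 with an unadjusted p under 0.05), with 373, 3 and 0 in the other sets. With the tag value nearer to 0, UPC2 was the 1 late ergosterol call and 0 were negative, with 595, 6 and 2 in the other sets. Tag set A alone called 1 negative member, ERG4, and tag set B alone 1, ERG5, with 2 neighbours. Without centring 1863 strains were called, 32.3% of them positive against 48.2%, and the same 3 members were called. ERG2 ranged from -0.35 to 0.15 with 1 experiment left out and was positive without experiment 2 (adjusted p = 0.597 in limma), and ERG3 changed sign to 0.016 in tag set B alone. PDR11 (-0.41), SWH1 (0.40, called with an adjusted p of 0.0491 in limma) and ATF2 (-0.050) changed sign in tag set A alone, SWH1 (0.12) with the tag value nearer to 0, and ATF2 (-0.028) and NSG2 (-0.043) without centring. Of 117 member values recomputed under alternatives, 96 kept their sign and their side of the threshold, 19 lost the call and 2 changed sign. Only the 3 called members could lose a call, and all 19 losses were theirs. ERG4 and ERG5 each lost it in 7 of 15 alternatives, and UPC2 in 5 of 15. For each member these losses include every fit with 1 experiment left out, where 0 of all strains were called. A slope over 5-FOA leaves no residual degree of freedom without 1 experiment and was not refitted there. The cause of these changes was not tested. The alternatives for tag differences, slopes and neighbours, and that with placeholders kept, were chosen after seeing the data. The pools were paired within each array by the ratio itself, and no pairing between arrays was possible because all arrays form 1 group.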
